A study of Mus musculus with 6 samples.

Results

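The genes described here are 9 that move calcium in the heart muscle cell, taken from a list: Atp2a2, Pln, Casq2, Ryr2, Trdn, Asph, Jph2, Slc8a1 and Cacna1c. All 9 have a row among the 46078 gene identifiers of the count tables. Each heartbeat begins when L-type channels admit calcium, which opens release channels in the sarcoplasmic reticulum, the internal calcium store. The muscle relaxes as a pump returns calcium to the store and an exchanger carries the rest out of the cell. Shifts in this cycle are a known feature of failing hearts, and the release unit and the L-type channel are sites of inherited rhythm disorders.

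RNA was sequenced from cardiomyocytes isolated by ex vivo perfusion of mouse hearts, in 2 genotypes. Acly-KD cells (n = 3 libraries) had a knockdown of Acly made with MyH6-Cas9 mice, in which the heart muscle myosin promoter Myh6 drives the Cas9 nuclease. Control cells (n = 3 libraries) are labelled wildtype. The age and sex of the mice and whether controls carried Cas9 are not given in the sources used here, nor is it said that the libraries came from separate animals. The p-values therefore measure the spread between libraries, which may be technical, and fewer cells of a type cannot be told apart from less RNA per cell.

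Reads counted in features numbered 460222 to 799868 in the Acly-KD libraries and 271463 to 814765 in the control libraries. That is 2.81% to 3.07% of each library's uniquely aligned reads. Features with exons opposite to an exon of another gene were 18.0% of the nuclear features and held 91.9% of the nuclear counts, the pattern that counting on the wrong strand would give. Acly received 0, 0 and 0 reads at its locus in Acly-KD 1 to 3, against 1, 5 and 6 in control 1 to 3. With a floor of 3 counts for the Acly-KD group, and the 12 control reads taken as exact, that is at least 4.10-fold lower. The check is limited because these are wrong-strand reads. Such reads also shifted at the 731 tested features with no exon on the other strand. Their median was -0.92, -0.28 and 0.21 in Acly-KD 1 to 3, on the log2 scale against the control mean. Reads given to Xist, the RNA of the inactive X chromosome, numbered 0 in each Acly-KD library and 0, 149 and 137 in control 1 to 3. Sex may therefore differ between the groups and among the controls. Control 1 was like the Acly-KD libraries in this. Telling the part of sex apart from that of the genotype therefore rests on that library alone. Of the 12 heart muscle markers, 12 were detected.

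Each gene was therefore read in 2 ways. The own-locus reading takes the count in the gene's own row, which under a strand swap holds only the few wrong-strand reads at that locus. The mRNA reading takes the count of a feature on the other strand whose exons overlap the gene, since a strand swap would place the gene's mRNA there. The annotation lists 7 such features, opposite to 4 of the 9 genes, and 5 of them are in the count tables. The mRNA of Atp2a2 and Asph could be read in this way, and that of Slc8a1 through only 8 bases. Ryr2, Casq2, Trdn, Jph2 and Cacna1c have no annotated exon on the other strand, so no count here reports their mRNA.

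**Figure D1:**
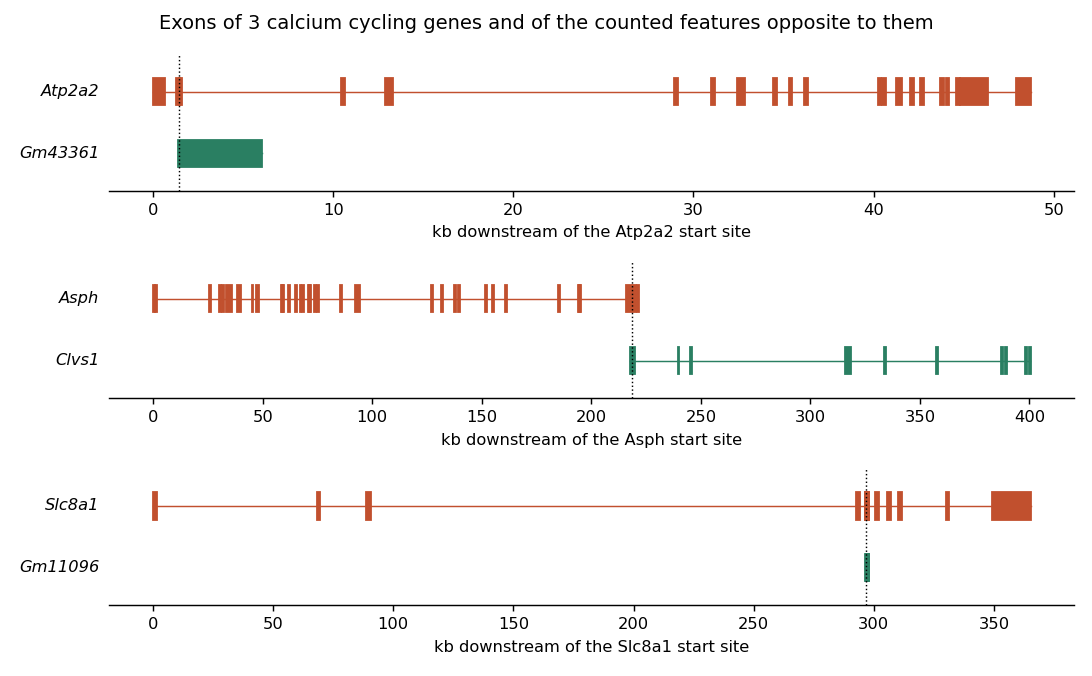
Exons (boxes, merged over transcripts) of Atp2a2, Asph and Slc8a1 and of the counted features on the other strand, by distance in kb from each gene's start site. Boxes too narrow to see are widened, and the dotted lines mark the shared bases: 83 for Atp2a2 with Gm43361, 2302 for Asph with Clvs1 and 8 for Slc8a1 with Gm11096.

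The shared stretches decide which transcripts can be read. Those of Atp2a2 and Slc8a1 are coding and are shown here as spliced mRNA of GENCODE M21 (mm10), with the bases shared with the opposite feature in capitals and the neighbouring coding bases in lower case. The Atp2a2 exon lies at chr5:122500731-122500813 on the minus strand, and all 83 of its bases are shared with Gm43361. The Slc8a1 exon at chr17:81441773-81441790 on the minus strand has 18 bases, of which 8 are shared with Gm11096. The whole annotated transcript of Gm11096, on the plus strand, has 45 bases and is given for comparison.
Atp2a2: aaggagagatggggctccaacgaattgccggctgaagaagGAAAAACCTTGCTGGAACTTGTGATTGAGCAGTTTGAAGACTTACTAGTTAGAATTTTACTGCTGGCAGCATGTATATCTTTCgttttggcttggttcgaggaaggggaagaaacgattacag
Slc8a1: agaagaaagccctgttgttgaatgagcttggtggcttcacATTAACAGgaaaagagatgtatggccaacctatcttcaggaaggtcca
Gm11096: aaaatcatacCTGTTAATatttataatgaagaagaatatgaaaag
The Atp2a2 exon is part of 5 of its 5 annotated transcripts, so both coding forms of the pump are read through it. The Slc8a1 exon is part of 5 of 6 transcripts. The stretch that Asph shares with Clvs1 is untranslated in Asph and belongs to 3 of its 15 coding transcripts, those that run to the far end of the gene. The other coding transcripts end before it, so the Clvs1 count cannot report them.

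Atp2a2 encodes the pump that refills the sarcoplasmic reticulum, and its mRNA reading hardly differed between the groups. Atp2a2 (ENSMUSG00000029467, chromosome 5, 122453513 to 122502225) lies opposite to Gm43361, a feature of 4690 bases annotated as in need of experimental support. Gm43361 held 13671, 9891 and 16790 reads in Acly-KD 1 to 3, against 5417, 17100 and 16507 reads in control 1 to 3. Scaled to library size, the mRNA reading of Atp2a2 was 38178, 45087 and 42438 CPM (counts per 1000000 reads of the scaled library) in Acly-KD 1 to 3, against 38537, 39706 and 45003 CPM in control 1 to 3. The groups overlapped throughout their ranges. The means were 41901 ± 3486 CPM in Acly-KD and 41082 ± 3446 CPM in control (SD, n = 3 each). The log2 fold change was 0.03 (SE 0.09, adjusted p = 0.943 in edgeR), with a 95% interval from -0.16 to 0.22. Its sign is not fixed: scaled by the uniquely aligned reads of each library, the value was -0.049. Most of Gm43361 lies in introns of Atp2a2, so reads of unspliced Atp2a2 RNA and of any transcript of Gm43361 itself are part of this count.

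Asph is a shared locus that encodes junctin, which holds calsequestrin near the release channel, junctate, a calcium-binding membrane protein, and the enzyme aspartate beta-hydroxylase. Its mRNA reading covers only the 3 of 15 coding transcripts that reach Clvs1, and which of these proteins they encode was not examined. This reading, which may therefore not report junctin, had a higher mean in Acly-KD but did not pass the test. Clvs1, opposite to the far end of Asph (ENSMUSG00000028207, chromosome 4, 9448069 to 9669344), held 323, 164 and 257 reads in Acly-KD 1 to 3, against 82, 269 and 201 reads in control 1 to 3. Asph makes up 83.9% of the exon overlap that Clvs1 has on the other strand. Reads from the remaining overlap, or from Clvs1 itself, may be part of this count. The mRNA reading was 902, 748 and 650 CPM in Acly-KD 1 to 3, against 583, 625 and 548 CPM in control 1 to 3. The 3 Acly-KD libraries all lay above the 3 controls, as they did for 8.12% of the 1453 genes tested in this reading. The means were 766 ± 127 CPM in Acly-KD and 585 ± 38.4 CPM in control (SD, n = 3 each). In edgeR the log2 fold change was 0.39 (SE 0.16, adjusted p = 0.408), and its 95% interval ran from 0.07 to 0.71. Without Acly-KD 1, the highest library, it was 0.25 and edgeR's adjusted p was 0.813, where the alternatives spanned 0.104 to 0.813. Counted per 1000000 uniquely aligned reads, Clvs1 stood at 13.5, 10.4 and 9.84 in Acly-KD 1 to 3, against 9.01, 10.05 and 8.20 in control 1 to 3, and on that scale the groups overlapped. In this reading edgeR called 0.413% of the genes, 0.206% higher and 0.206% lower, and neither Atp2a2 nor Asph was among them. Groups apart in the other direction, with Acly-KD below control, made up 6.61%.

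Slc8a1 encodes the sodium-calcium exchanger, the main route by which calcium leaves the heart muscle cell. Slc8a1 (ENSMUSG00000054640, chromosome 17, 81373105 to 81738377) falls below the minimum of 50 shared bases set for the mRNA reading, so the count of Gm11096 is given as deposited. Gm11096 held 293, 140 and 224 reads in Acly-KD 1 to 3, against 70, 200 and 185 reads in control 1 to 3. Scaled, it stood at 449.8, 342 and 280.0 CPM in Acly-KD 1 to 3, against 255, 237 and 266 CPM in control 1 to 3. All 3 Acly-KD libraries lay above the controls, as for 5.83% of the 2952 features tested as deposited, and did so per 1000000 uniquely aligned reads too. On the second scale the values were 12.3, 8.90 and 8.58 in Acly-KD 1 to 3, against 7.69, 7.47 and 7.55 in control 1 to 3, and 3.62% of features were apart in this direction. In edgeR its log2 fold change was 0.50 (SE 0.19, adjusted p = 0.659), and the 95% interval ran from 0.09 to 0.91. Without Acly-KD 1 it was 0.29 and edgeR's adjusted p was 0.996, where the alternatives spanned 0.0542 to 1.00. With Gm11096 given to Slc8a1 in the mRNA reading the value was 0.47 (adjusted p = 0.302 in edgeR), and its interval ran from 0.13 to 0.81. Of the 45 bases of Gm11096, 8 lie in a Slc8a1 exon and the others in its introns, so spliced and unspliced Slc8a1 RNA cannot be told apart in this count.

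**Figure D2:**
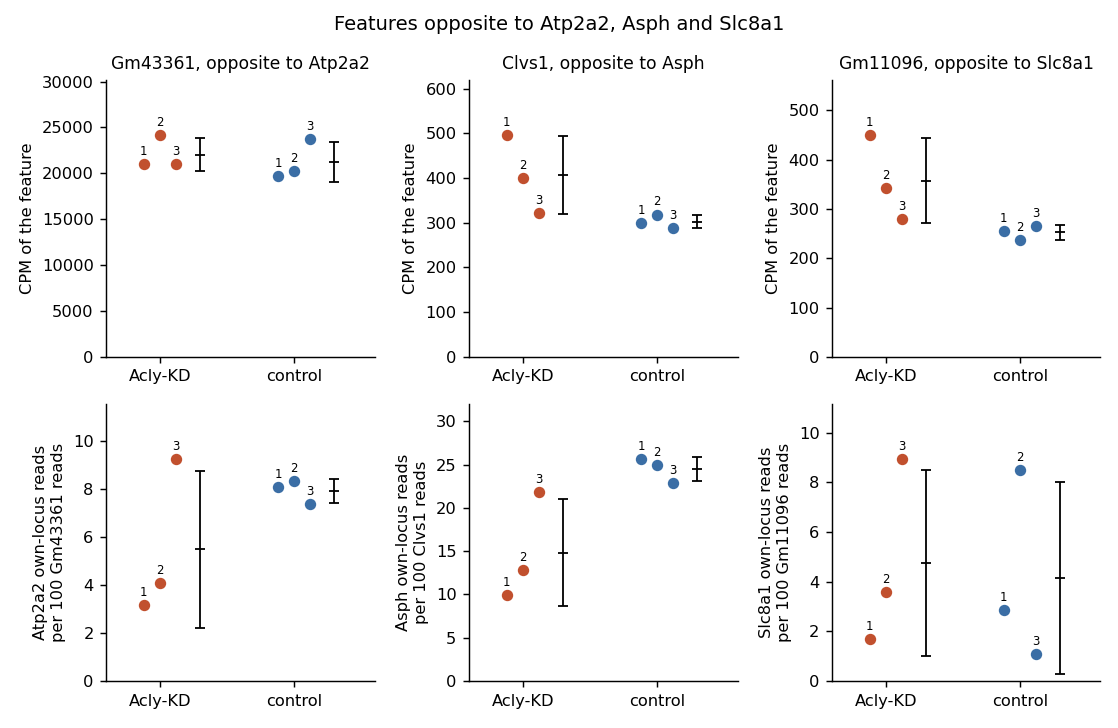
Upper row, CPM of the features opposite to Atp2a2, Asph and Slc8a1 in each library (numbered points; bars, mean ± SD, n = 3). Lower row, own-locus reads of the gene per 100 reads of the opposite feature. Clvs1 and Gm11096 lie above all controls in the 3 Acly-KD libraries, whereas Gm43361 overlaps.

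Pln encodes phospholamban, the small membrane protein that inhibits the pump until it is phosphorylated. Its mRNA could not be read. Pln (ENSMUSG00000038583, chromosome 10, 53337667 to 53345987) shares 141 bases with Cep85l, which held 1 read in Acly-KD 1 and 0 in each other library. The annotated exon of Cep85l at that place may not be in the gene models that the authors counted, which are not given in the sources used here. A second opposite feature, Gm47644, shares 1644 bases with Pln and is not analysed here, as it has no row in the tables used. Reads at the Pln locus itself numbered 29, 29 and 59 in Acly-KD 1 to 3, against 28, 79 and 34 in control 1 to 3. These were 44.5, 70.8 and 73.7 CPM in Acly-KD 1 to 3, against 102, 93.5 and 48.9 CPM in control 1 to 3. The groups overlapped, since control 3 lay below Acly-KD 2 and 3. Its log2 fold change was -0.34 (adjusted p = 0.959 in edgeR), and the 95% interval ran from -1.06 to 0.37. It was -0.13 without Acly-KD 1, -0.15 without control 1 or control 2, and -0.63 without control 3.

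At their own loci, 8 of the 9 genes passed the filter on low counts, and 0 were called. Of all 2952 features tested as deposited, edgeR called 0%, with 180 at an unadjusted p under 0.05, and DESeq2 called 0. All 8 log2 fold changes were below zero (5 with library sizes from features without opposite-strand exons), with a median of -0.33, where the median of all features was -0.04 and 54.4% lay below zero. Without Acly-KD 1, 4 of the 8 were below zero and the median was -0.06, and without Acly-KD 1 and 2 together 3 were below zero and the median was 0.28.

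The wrong-strand reads of the pump gene split the Acly-KD libraries. Atp2a2 had 432, 404 and 1549 own-locus reads in Acly-KD 1 to 3, against 438, 1422 and 1215 in control 1 to 3. These were 663, 987 and 1936 CPM in Acly-KD 1 to 3, against 1595, 1682 and 1747 CPM in control 1 to 3. Acly-KD 1 and 2 lay below every control and Acly-KD 3 above every control. The log2 fold change was -0.48 (SE 0.39, adjusted p = 0.959 in edgeR), and without Acly-KD 1 it was -0.19. Without Acly-KD 3 it was -1.01 and edgeR's adjusted p was 0.00760, where the alternatives spanned 0.00760 to 1.00. Of all 2952 features, that fit called 42 lower and 15 higher. Casq2 (ENSMUSG00000027861, chromosome 3, 102086415 to 102146514) encodes calsequestrin, the protein that binds calcium inside the store. Casq2 rested on 8, 3 and 35 reads in Acly-KD 1 to 3, against 11, 28 and 10 reads in control 1 to 3, with groups that overlapped. Casq2 had a log2 fold change of -0.31, and the 95% interval ran from -1.61 to 0.99.

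Among the genes of the release unit, Jph2 had the lowest log2 fold change. Jph2 (ENSMUSG00000017817, chromosome 2, 163336242 to 163397993) encodes junctophilin 2, which ties the surface membrane to the sarcoplasmic reticulum. It had 50, 45 and 166 own-locus reads in Acly-KD 1 to 3, against 62, 171 and 175 in control 1 to 3. These were 76.8, 109.9 and 207 CPM in Acly-KD 1 to 3, against 226, 202 and 252 CPM in control 1 to 3. Only Acly-KD 3 reached the range of the controls. Its log2 fold change was -0.76 (SE 0.31, adjusted p = 0.717 in edgeR), and the 95% interval ran from -1.44 to -0.08. Without Acly-KD 3 it was -1.27 and edgeR's adjusted p was 0.0116, where the alternatives spanned 0.0116 to 1.00. Without Acly-KD 1 it was -0.47. The fit without Acly-KD 3 called 42 of 2952 features lower and 15 higher. Counted per 1000000 uniquely aligned reads, all 3 Acly-KD libraries lay below the controls for Jph2, as for 7.96% of features.

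Ryr2 and Trdn, the other parts of the release unit, had overlapping groups at their own loci. Ryr2 (ENSMUSG00000021313, chromosome 13, 11553102 to 12106945) encodes the release channel of the heart. It stood at 120, 178 and 304 CPM in Acly-KD 1 to 3, against 233, 263 and 217 CPM in control 1 to 3, on 64 to 243 reads per library. On the log2 scale the difference was -0.23, with a 95% interval from -0.87 to 0.40. Trdn (ENSMUSG00000019787, chromosome 10, 33080554 to 33476709) encodes triadin, which with junctin couples calsequestrin to the channel. It stood at 99.8, 200.3 and 245 CPM in Acly-KD 1 to 3, against 233, 155 and 199.9 CPM in control 1 to 3. The difference was -0.09 on that scale, with a 95% interval from -0.73 to 0.56. For both genes Acly-KD 1 was the lowest of the 6 libraries and Acly-KD 3 the highest, and without Acly-KD 1 the values turned to 0.043 for Ryr2 and 0.22 for Trdn.

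For Asph the own locus and the opposite feature lay on different sides of zero. Its own-locus reading was 49.1, 51.3 and 70.0 CPM in Acly-KD 1 to 3, against 76.5, 79.3 and 66.1 CPM in control 1 to 3. The groups overlapped by 1 library, Acly-KD 3. At its own locus the log2 fold change was -0.36 (adjusted p = 0.954 in edgeR), and the 95% interval ran from -0.99 to 0.27. Per 100 reads of Clvs1 there were 9.91, 12.8 and 21.8 own-locus reads in Acly-KD 1 to 3, against 25.6, 24.9 and 22.9 in control 1 to 3. All 3 Acly-KD libraries lay below the controls in this ratio (two-sided exact permutation p = 0.1, the smallest that 3 against 3 allow). Of 89 other genes with 10 or more mRNA reads per own-locus read, 5.62% were apart in that direction, a class that Asph, with fewer reads of Clvs1 per own-locus read, is not in. For Atp2a2 the ratio to Gm43361 was 3.16, 4.08 and 9.23 per 100 in Acly-KD 1 to 3, against 8.09, 8.32 and 7.36 in control 1 to 3, with groups that overlapped.

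The surface membrane genes also had few wrong-strand reads. Cacna1c (ENSMUSG00000051331, chromosome 6, 118587240 to 119196418) encodes the pore of the L-type calcium channel. It stood at 29.2, 41.5 and 78.7 CPM in Acly-KD 1 to 3, against 61.9, 49.7 and 47.5 CPM in control 1 to 3, on 17 to 63 reads per library. Its log2 fold change was -0.04, with a 95% interval from -0.86 to 0.78, and without Acly-KD 1 it was 0.26. Slc8a1 had 5, 5 and 20 reads at its own locus in Acly-KD 1 to 3, against 2, 17 and 2 in control 1 to 3, too few to pass the filter. A two-sided exact permutation test of its CPM gave p = 0.5.

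**Figure D3:**
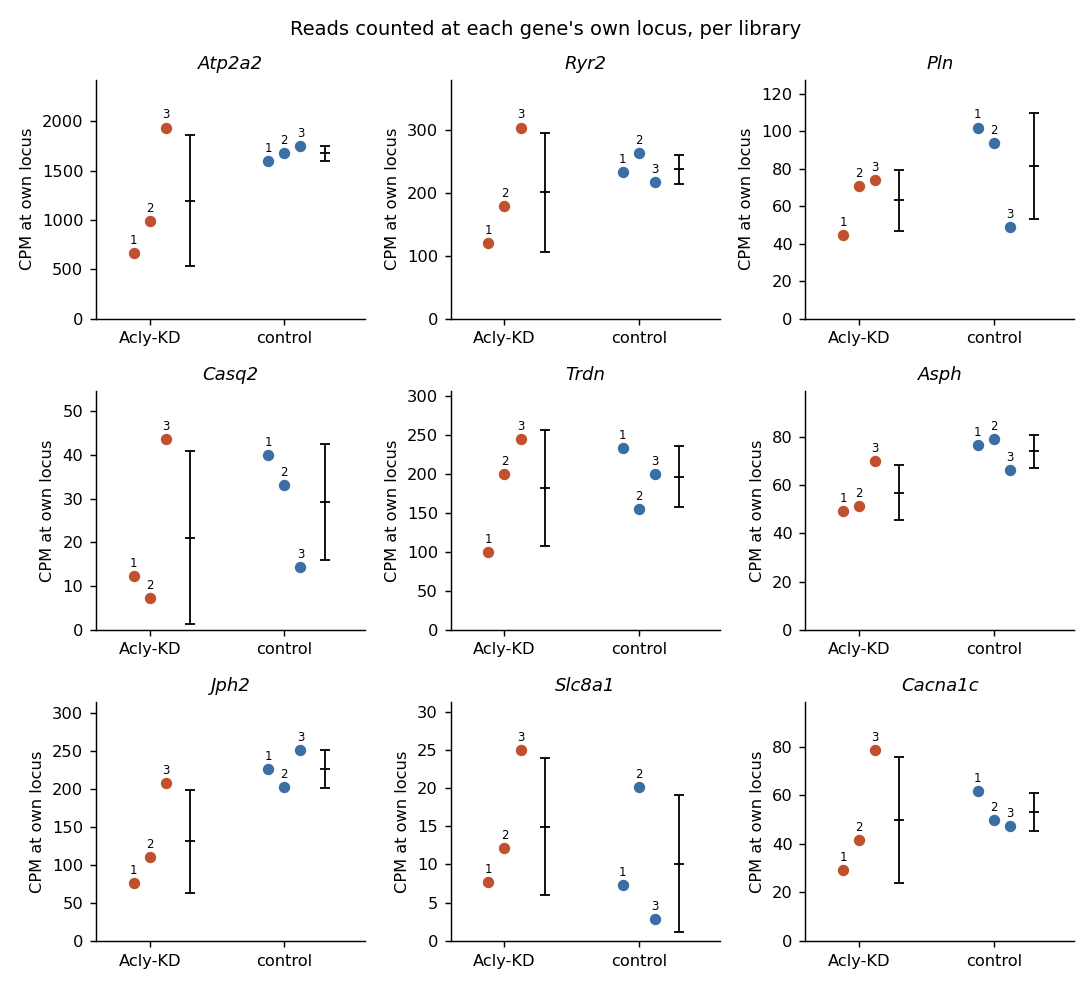
CPM at the own locus of each of the 9 genes in each library (numbered points; bars, mean ± SD, n = 3). Acly-KD 1 lies below every control for all of them except Slc8a1, and Acly-KD 3 lies at or above the highest control for Atp2a2, Ryr2, Casq2, Trdn, Slc8a1 and Cacna1c.

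The order of the own-locus levels per kilobase of exon was led by Atp2a2. It averaged 197 ± 109 CPM per kb in Acly-KD and 275 ± 12.6 CPM per kb in control (SD, n = 3 each). Jph2 followed with 30.9 ± 16.0 CPM per kb in Acly-KD and 53.2 ± 5.80 CPM per kb in control. Pln, at 22.8 ± 5.83 and Trdn, at 19.4 ± 7.95 CPM per kb in Acly-KD, did not differ from each other beyond their spread. In control the values were 29.5 ± 10.3 CPM per kb for Pln and 20.95 ± 4.19 CPM per kb for Trdn. Casq2 and Ryr2 came next, also within their spread of each other, at 7.72 ± 7.22 and 6.97 ± 3.26 CPM per kb in Acly-KD and 10.7 ± 4.85 and 8.25 ± 0.803 CPM per kb in control. Asph had 3.53 ± 0.713 and Cacna1c 2.35 ± 1.22 CPM per kb in Acly-KD, and 4.59 ± 0.429 and 2.502 ± 0.367 CPM per kb in control. Slc8a1 was last, with 0.796 ± 0.478 CPM per kb in Acly-KD and 0.537 ± 0.476 CPM per kb in control. These are levels of wrong-strand reads over the exons of all isoforms, not of mRNA.

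The 8 genes shifted with the libraries much as the features without opposite-strand exons did. On the log2 scale against the mean of the controls, their median was -0.97, -0.46 and 0.27 in Acly-KD 1 to 3, against 0.16, 0.05 and -0.14 in control 1 to 3. Over the 731 tested features with no exon on the other strand, which include 5 of the 8 genes, it was -0.92, -0.28 and 0.21 in Acly-KD 1 to 3, against 0.09, 0.11 and -0.12 in control 1 to 3. Wrong-strand reads per mRNA read, as a median over the 89 other genes relative to the mean of the 6 libraries, were 0.561, 0.840 and 1.26 in Acly-KD 1 to 3, against 1.13, 1.15 and 0.912 in control 1 to 3. With a term for this ratio, 4 of the 8 genes were below zero and the median was -0.04. With library sizes from the features without opposite-strand exons, 5 were below zero and the median was -0.02, while the median of all features moved up by 0.38.

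**Figure D4:**
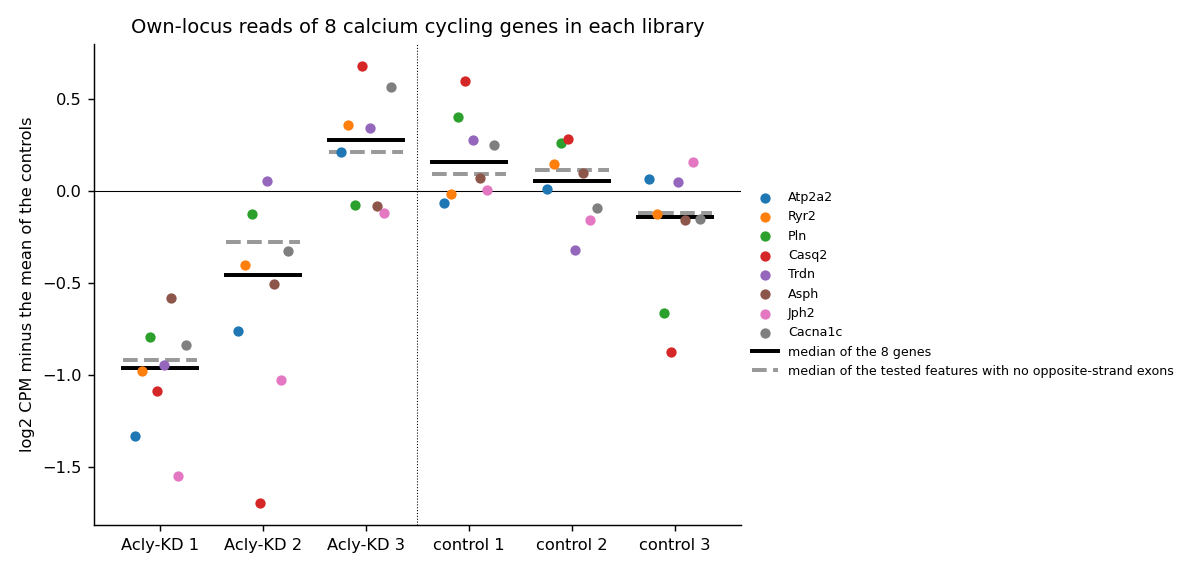
Own-locus log2 CPM minus the control mean for the 8 tested genes in each library (points), with their median (solid line) and the median of the 731 tested features without opposite-strand exons (dashed line). Both medians are lowest in Acly-KD 1, at -0.97 and -0.92, and highest in Acly-KD 3, at 0.27 and 0.21.

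Features most like Atp2a2 across the 6 libraries were ranked by the mean absolute difference in log2 CPM, each centred on its own mean. At the own locus these were Ppp2ca, a phosphatase catalytic subunit, at 0.05, and Myoz2, a Z-disc protein gene, and Selenop, a selenium carrier gene, both at 0.09. In the mRNA reading they were Rab11b, a membrane traffic gene, at 0.04, Atpif1, an inhibitor of the mitochondrial ATP synthase, at 0.05, and Aldh6a1, an enzyme of valine breakdown, also at 0.05. The measure has no test, and the values of one library share its depth.

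The wider calcium handling list holds 77 other genes of uptake, release, membrane channels, extrusion, signalling and mitochondrial calcium. In the mRNA reading 9 of them had reads, 5 were tested, 0 rose and 0 fell. Their median log2 fold change was -0.09, where that of all genes was 0.01. Itpr3, Atp2a1 and Cacna1h had 48, 35 and 14 reads over the 6 libraries, too few to test. Ppp1ca, a catalytic subunit of the phosphatase that acts on phospholamban, was read through 225 bases shared with Rad9a and averaged 1448 ± 76.3 CPM in Acly-KD and 1634 ± 144 CPM in control (SD, n = 3 each). Its groups overlapped, and on the log2 scale the 95% interval of the difference ran from -0.44 to 0.08.

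At their own loci 17 of the 77 were tested, 0 rose and 0 fell, with 14 below zero and a median of -0.29. Of all 2952 features tested as deposited, 54.4% lay below zero and the median was -0.04. Among the 77, Hrc, a calcium-binding protein of the store, had the most reads. It stood at 95.2, 264 and 370 CPM in Acly-KD 1 to 3, against 444, 285 and 243 CPM in control 1 to 3. Its groups overlapped (log2 fold change -0.38, adjusted p = 0.965 in edgeR). S100a1, a calcium sensor that binds the pump and the release channel, stood at 12.3, 12.2 and 33.7 CPM in Acly-KD 1 to 3, against 40.1, 62.7 and 37.4 CPM in control 1 to 3. All 3 Acly-KD libraries lay below the controls, as for 5.56% of features. Its log2 fold change was -1.22, with an SE of 0.47 (adjusted p = 0.659 in edgeR). Srl, Calr, Canx and Atp1b1 had overlapping groups, with log2 fold changes from -0.50 for Canx, a chaperone gene, to 0.22 for Srl, the gene of the store protein sarcalumenin.

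At their own loci the summed marker lists overlapped between the groups, except the atrial one. Summed over the 12 heart muscle markers, own-locus reads were 6017 to 18459 CPM in Acly-KD and 14838 to 18614 CPM in control. All 12 had log2 fold changes below zero at their own loci, with a median of -0.43. The 8 endothelial markers summed to 27.6 to 117 CPM in Acly-KD and 46.0 to 80.1 CPM in control, and the 8 of smooth muscle and pericytes to 66.0 to 162 CPM in Acly-KD and 114 to 152 CPM in control. The 8 fibroblast markers summed to 16.9 to 26.9 CPM in Acly-KD and 12.9 to 27.2 CPM in control, and the 7 of macrophages and leukocytes to 107 to 121 CPM in Acly-KD and 98.3 to 154 CPM in control, with Ptprc and Adgre1 at 0 in all libraries. The 6 atrial markers summed to 36.8 to 63.5 CPM in Acly-KD and 70.5 to 80.1 CPM in control, with Sln and Bmp10 at 0. That sum rests mainly on Kcnj3 and Nppa, with 136 and 82 reads over the 6 libraries. Of single features as deposited, 5.56% were apart in that direction. The 2 atrial markers with an mRNA reading summed to 4659 to 13086 CPM in Acly-KD and 3842 to 9701 CPM in control, and overlapped. In the mRNA reading 4 of the 12 heart muscle markers had reads, which summed to 52526 to 59782 CPM in Acly-KD and 62198 to 82368 CPM in control, with no overlap. Of single genes in this reading, 6.61% were apart in that direction. The 4 markers did not move together: log2 fold changes were -0.20 for Ckm, -1.36 for Myh7, 0.11 for Myl2 and 0.58 for Ttn. Ckm, the largest part of the sum, averaged 45164 ± 3473 CPM in Acly-KD and 51720 ± 2027 CPM in control (SD, n = 3 each). Ttn averaged 2367 ± 404 CPM in Acly-KD and 1573 ± 193 CPM in control (SD, n = 3 each). Myh7 stood at 29362 CPM in control 3 and at 5014 to 10226 CPM in the other 5 libraries. None of the 12 passed the test in edgeR in either reading. The part of these shifts in the values of the calcium cycling genes was not tested.

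**Figure D5:**
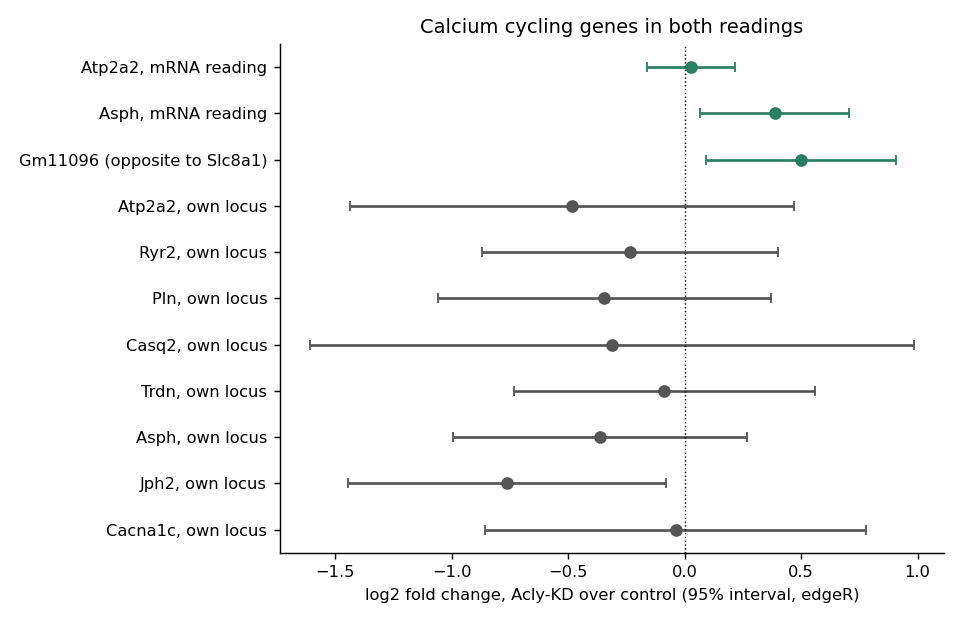
Log2 fold changes, Acly-KD over control, with 95% intervals from edgeR. Green, Atp2a2 and Asph in the mRNA reading and Gm11096, opposite to Slc8a1; grey, the 8 genes tested at their own loci. Own-locus values all lie below zero with wide intervals (5 of 8 with library sizes from features without opposite-strand exons), Atp2a2 in the mRNA reading lies at 0.03, and Asph and Gm11096 lie at 0.39 and 0.50.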

How the data were processed

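The authors deposited 1 table of raw read counts by gene identifier for each library. Named in the submitters' processing notes, with no versions, are HTSeq, TopHat2, SAMtools, FastQC and DESeq2, with mm10 as the build. The kit marks strand, per the labels' protocols. With which strand setting reads were counted is not given in the sources here. Rows that name no gene took 97.4% to 97.7% of all entries and stayed out of library sizes and tests. Of the 46078 identifiers 45229 matched GENCODE M21, which gave symbols, exons and overlaps.

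In the mRNA reading, a nuclear feature's counts were reassigned to the gene that made up 80% or more of its exon overlap on the other strand, over 50 or more bases, where that gene had fewer counts of its own or no row. Counts were tested in edgeR 4.0.16 (R 4.3.3) with TMM, filterByExpr (minimum count 10), its robust quasi-likelihood test, and p-values adjusted by Benjamini-Hochberg over all features at 0.05. CPM use TMM-scaled libraries of tested features, and log2 values of single libraries an added 0.5 count. Intervals at 95% use the test's degrees of freedom. The floor of 3 counts covers counting in the Acly-KD group only, and the intervals cover counting and library spread only. No library repeated another of its own group (chi-square per degree of freedom 4.03 to 13.1). Pairs across the groups were not compared in this way. The steps were tested on simulated data. Alternatives were DESeq2 1.42.0 and other scalings, filters, terms, a replicate block and libraries left out. The genes and lists, and both readings, were chosen with earlier results of these data known, and the ratio's minimum of 10 mRNA reads per wrong-strand read after its values were seen. Named genes were all 9, Acly, the 8 genes of the wider list with the most reads in each reading, the 3 features most like Atp2a2, and markers from the 4 most abundant of each list. Some genes of the wider list are not reported here.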

Additional observations from a re-analysis of the deposited data

How the results depend on the processing

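In the mRNA reading Asph kept its sign and stayed uncalled under 17 alternatives (0.25 to 0.50). Gm11096, as deposited, did so under 16 (0.29 to 1.00). Its highest value came with library sizes from features without opposite-strand exons, which moves the median of all features up by 0.38. Atp2a2 in the mRNA reading was -0.049 when scaled by uniquely aligned reads, and -0.028 to 0.11 with single libraries left out. It was below zero without Acly-KD replicate 2 and without control replicate 1. A minimum of 200 shared bases leaves Atp2a2 with no mRNA reading, since it shares 83 bases with Gm43361. At their own loci Pln, Asph, Jph2 and Atp2a2 stayed below zero under the 16 alternatives fitted gene by gene. Those 16 do not include the fit without Acly-KD replicates 1 and 2, given below for the 8 genes together. In Acly-KD 3 alone, Atp2a2 lay 0.21 above the control mean on the log2 scale. With library sizes from features without opposite-strand exons Pln was -0.018 and Asph -0.028. Pln was -0.096 with the wrong-strand ratio as a term. With that term Ryr2 was 0.018, Casq2 0.081, Trdn 0.13 and Cacna1c 0.23, with 4 of 8 genes below zero. With library sizes from features without opposite-strand exons Ryr2 was 0.014, Trdn 0.16 and Cacna1c 0.19, with 5 of 8 below zero. With no filter Cacna1c was 0.016. A term for libraries with reads opposite to Xist left all 8 genes below zero, from -0.83 (Casq2) to -0.20 (Ryr2). Their median was then -0.41, and that comparison rests on control 1. With single libraries left out Ryr2 ran from -0.68 to 0.043, Casq2 from -1.39 to 0.023, Trdn from -0.37 to 0.22 and Cacna1c from -0.55 to 0.26. Each was lowest without Acly-KD replicate 3 and highest without Acly-KD replicate 1, and Casq2 and Cacna1c were above zero without Acly-KD replicate 2, Trdn and Cacna1c without control replicate 1. With single libraries left out, 4 to 8 of the 8 genes were below zero and their median ran from -0.61 to -0.06; without Acly-KD replicates 1 and 2, added after seeing the data, 3 were and the median was 0.28. The causes were not tested.

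Calls over all features also moved. As deposited, edgeR called 0 higher and 0 lower, but 2 and 1 with no filter, 3 and 1 with the ratio term and 2 higher with library sizes from features without opposite-strand exons. With single libraries left out it called 0 to 15 higher and 0 to 42 lower, the most without Acly-KD replicate 3. In the mRNA reading 3 were higher and 3 lower, against 12 and 18 with no filter, 0 and 0 with at least 20 counts in every library, 0 and 0 with the term for reads opposite to Xist, and 0 and 1 with the ratio term. DESeq2 called 1 higher, scaling by uniquely aligned reads 0 higher, and a minimum of 200 shared bases 1 higher. Left-out libraries gave 0 to 9 higher and 0 to 14 lower.

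The replicate block gave 5 higher and 7 lower in the mRNA reading and 0 as deposited, and no calcium cycling gene was called. Same-numbered libraries did not deviate together: the correlations were -0.06, -0.02 and -0.18 as deposited and -0.01, -0.01 and -0.05 in the mRNA reading. In both readings 0 of 6 libraries correlated best with their own number. The numbers thus gave no sign of pairing, but 3 libraries per group cannot exclude that same-numbered samples were handled together. Own-locus values rest on 2 to 1549 reads per gene and library, which limits Casq2 and Slc8a1 most.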

Other observations

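Skeletal muscle relatives of these genes also had reads on the other strand. Cacna1s, the skeletal muscle L-type channel, was read through 1309 bases shared with Gm37759 and stood at 237, 296 and 258 CPM in Acly-KD 1 to 3, against 213, 241 and 221 CPM in control 1 to 3. The groups overlapped, and on the log2 scale the 95% interval of the difference ran from -0.22 to 0.63 in edgeR. Casq1, the skeletal calsequestrin, was read through 156 bases shared with Gm17224 and stood at 83.8, 4.56 and 25.3 CPM in Acly-KD 1 to 3, against 92.5, 51.1 and 27.3 CPM in control 1 to 3. Its values varied more within each group than between them. Atp2a1, the fast muscle pump, had 35 reads in all, through Rabep2, and was too low to test. Reads of the features themselves cannot be told apart from mRNA here.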
